A study of Homo sapiens with 12 samples.

Results

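The MHC class II genes measured here were 10 of the 20030 genes in an mRNA-seq table of MOLM-13 and THP-1 leukemia cells, and they were taken by symbol, with earlier results of the same libraries known. They comprised the chain genes HLA-DRA, HLA-DRB1, HLA-DRB5, HLA-DPA1, HLA-DPB1 and HLA-DQA1, the peptide loading genes HLA-DMA, HLA-DMB and CD74, and the transactivator gene CIITA. All 10 had a row in the table.

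MHC class II molecules present peptides from ingested proteins to CD4+ T cells on the surface of antigen-presenting cells such as monocytes, dendritic cells and B cells. An alpha chain (the A genes) and a beta chain (the B genes) of the DR, DP or DQ type pair in the endoplasmic reticulum with the invariant chain encoded by CD74, which fills the peptide groove until proteases in endosomes cut it down, after which the HLA-DM dimer of HLA-DMA and HLA-DMB exchanges the last fragment for a peptide. CIITA does not bind DNA itself but joins the RFX, CREB and NF-Y complexes that sit on the X and Y boxes of class II promoters, and interferon gamma is its best known inducer.

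There were 4 groups of 3 libraries, all from human monocytic leukemia lines with a rearranged MLL gene. MOLM-13 cells, which also carry the FLT3/ITD mutation, were left with the solvent DMSO as control or incubated with 0.5 μM JOA for 48 h. THP-1 cells, which have wild-type FLT3, were left with DMSO or incubated with 2 μM JOA for 48 h. For both lines the time is that of the labels, and a legend of the study gives a longer one. JOA (Jiyuan oridonin A) is an ent-kaurene diterpenoid. The study asked whether it acts against MLL-rearranged leukemia cells, and mRNA-seq of both lines was 1 part of that work, meant to look into the differentiation seen with JOA. Each line is 1 culture-adapted population, so the lines stand for themselves and not for a class of patients. The dose differs with the line, so effects of the dose and of the line cannot be told apart. The labels number the replicates of each group 1 to 3 but do not say that they were separate cultures, so p-values measure only the spread between these libraries.

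The values are FPKM, fragments scaled to the length of the transcript and to the mapped fragments of the library, which can be compared between genes. Their sum over all genes lay between 291127 and 325023 per library. Total depth is unknown. Of the 10 myeloid marker genes 9 had a mean of at least 1 FPKM in every group, and the exception, CD14, ranged from 0.144 to 0.645 FPKM in its group means. Fold changes and differences are on the log2(FPKM + 0.1) scale, which understates those of genes near 0.1 FPKM. A gene was called at a limma adjusted p under 0.05 (Benjamini-Hochberg, over all genes tested) with a log2 fold change of at least 0.58 in size.

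The chain and HLA-DM genes lie in the class II region of chromosome 6 (GRCh38, GENCODE release 29). HLA-DRA spans chr6:32439842-32445046, HLA-DRB5 chr6:32517343-32530287, HLA-DRB1 chr6:32578769-32589848 and HLA-DQA1 chr6:32628179-32647062. HLA-DMB spans chr6:32934629-32941070, HLA-DMA chr6:32948613-32969094, HLA-DPA1 chr6:33064569-33080775 and HLA-DPB1 chr6:33075926-33087201. CD74 lies at chr5:150401637-150412929 and CIITA at chr16:10866222-10943021. HLA-DPA1 and HLA-DPB1 overlap on opposite strands. The libraries were stranded, but the strand setting of the counting is not given in the sources used here. Near-identical copies also share reads. Of all 50-base stretches of the longest coding transcript, 8.64% in HLA-DRB1 were also found in HLA-DRB5, 9.53% in HLA-DQA1 were also found in HLA-DQA2, and 2.65% in HLA-DPB1 were found in another class II gene. For HLA-DRA, HLA-DPA1, HLA-DMA, HLA-DMB, CD74 and CIITA the share was 0%. Only the 10 genes and the other class II genes were searched, so sharing with further genes was not tested. The split of reads between HLA-DRB1 and HLA-DRB5 is therefore uncertain.

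The promoters are shown because the X and Y boxes are where CIITA and its partners act on class II genes. RefSeq promoter windows (GRCh38.p14, 250 bases before to 50 after the transcript start) were matched by symbol for 8 of the 10 genes. HLA-DRA and CIITA were not matched. The letters AGNAACNGA, a part of the X box, and ATTGG, the Y box core that NF-Y binds, were searched on both strands. The X letters were chosen after these promoters had been viewed, so their matches are a description. X and Y letters do not overlap in these promoters. In the stretches below, each read along its gene's strand, capitals mark the X letters and the Y letters where present (CCAAT where the Y box is read on the other strand).
HLA-DRB1, chr6:32589874-32589942, minus strand: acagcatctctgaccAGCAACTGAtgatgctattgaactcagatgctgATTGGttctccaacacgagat
HLA-DRB5, chr6:32530357-32530425, minus strand: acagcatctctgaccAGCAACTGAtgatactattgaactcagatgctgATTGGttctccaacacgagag
HLA-DQA1, chr6:32637289-32637357, plus strand: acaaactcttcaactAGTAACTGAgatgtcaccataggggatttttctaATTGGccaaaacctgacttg
HLA-DPA1, second start, chr6:33073695-33073763, minus strand: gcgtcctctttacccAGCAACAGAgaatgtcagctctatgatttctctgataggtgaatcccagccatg
HLA-DPB1, chr6:33075846-33075910, plus strand: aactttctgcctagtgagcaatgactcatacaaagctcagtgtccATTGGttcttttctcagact
HLA-DMA, chr6:32953157-32953221, minus strand: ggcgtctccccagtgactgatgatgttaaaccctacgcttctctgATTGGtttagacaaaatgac
HLA-DMB, chr6:32941063-32941131, minus strand: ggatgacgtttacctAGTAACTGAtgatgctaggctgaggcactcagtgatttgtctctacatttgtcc
CD74, chr5:150412944-150413008, minus strand: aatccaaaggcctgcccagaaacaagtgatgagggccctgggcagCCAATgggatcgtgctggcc

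HLA-DRB1, HLA-DRB5 and HLA-DQA1 hold the X letters followed by the Y letters on the same strand, with 24 bases between them in both DR genes and 25 in HLA-DQA1. The DR stretches are the same in 67 of 69 letters. Of all 35116 promoters in the RefSeq table, 4.48% hold the X letters, 34.6% the Y letters, and 49 promoters (0.14%) the X letters followed by the Y letters on 1 strand within 35 bases. At the spacing seen in these 3 genes themselves, 24 or 25 bases, there were 7 promoters (0.0199%), a limit chosen after the gap was seen. Those 7 are the promoters of HLA-DRB1, HLA-DRB5, HLA-DQA1 and HLA-DOA and of LOC105375155, LOC107986813 and LOC124904655. HLA-DMB and the second start of HLA-DPA1 hold the X letters with no Y letters on the same strand, and HLA-DPB1, HLA-DMA and CD74 hold Y letters only. A window without a match says only that these letters are not in it.

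**Figure D1:**
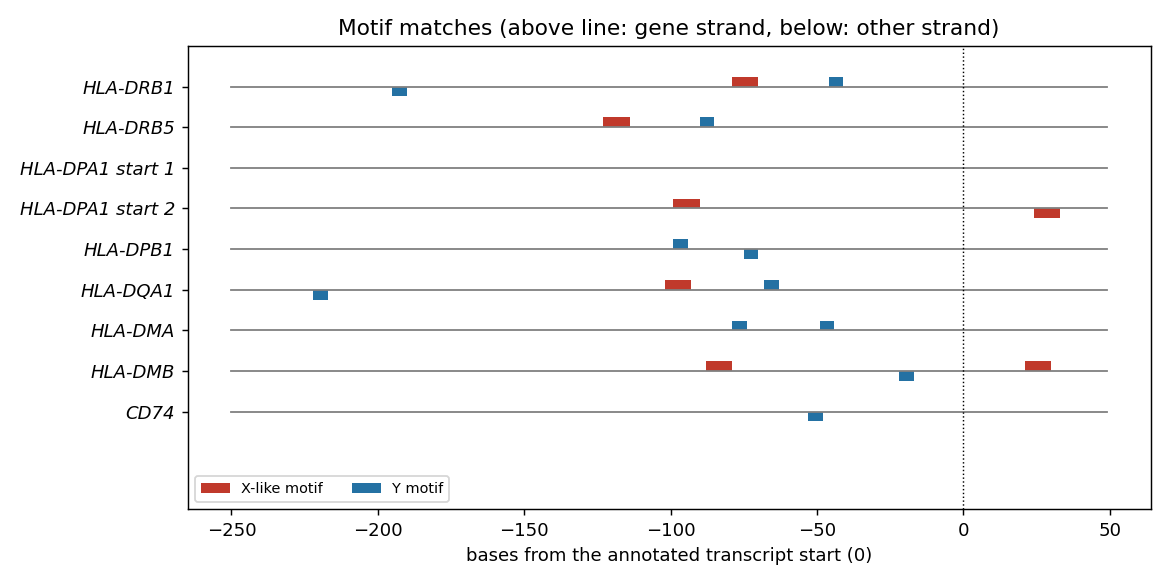
Motif matches in the promoter windows of 8 genes, with HLA-DPA1 at both of its RefSeq starts. The horizontal axis gives bases from the transcript start (0), red bars are X letters, blue bars are Y letters, and bars above a line are on the gene's strand. In HLA-DRB1, HLA-DRB5 and HLA-DQA1 a red bar is followed by a blue bar 24 or 25 bases on, and the first HLA-DPA1 start has no bar.

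In untreated cells, the chain genes were far higher in THP-1 than in MOLM-13 cells, while CD74 and CIITA were not called different. HLA-DRA, the alpha chain shared by every DR molecule, was at 70.9, 59.5 and 59.2 FPKM in THP-1 control replicates 1 to 3 and at 3.64, 2.14 and 3.38 FPKM in MOLM-13 control replicates 1 to 3, a difference of 4.36 ± 0.18 (log2, SE). HLA-DRB1, the main DR beta chain, was at 42.5, 43.1 and 39.9 FPKM in THP-1 against 0.486, 0.166 and 0.589 FPKM in MOLM-13 cells, a difference of 6.46 ± 0.31. The lowest THP-1 value of both genes lay far above the highest MOLM-13 value.

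The other DR beta gene, HLA-DRB5, and HLA-DPA1, HLA-DPB1 and HLA-DQA1 were at or near 0 FPKM in MOLM-13 cells. The DQ beta chain gene HLA-DQB1 was not, at 0.676 ± 0.0555 FPKM in the MOLM-13 controls (mean ± SD, n = 3). HLA-DRB5 was at 14.1, 14.1 and 13.7 FPKM in the THP-1 controls and was listed at 0 in 2 of the 3 MOLM-13 controls, with 0.0263 FPKM in the other. HLA-DPA1, the DP alpha chain, was at 6.18, 5.69 and 5.66 FPKM in THP-1 and at 0, 0.0245 and 0.0503 FPKM in MOLM-13 controls. Its beta chain partner HLA-DPB1 was at 2.13, 1.68 and 2.06 FPKM in THP-1 and near 0.01 FPKM in MOLM-13 controls (0.00906, 0.00994 and 0.0102). If the lowest value above 0 of a gene is taken as 1 fragment, the MOLM-13 controls held 0, 1 and 2 fragments of HLA-DPA1, within a tolerance of 0.05 fragments. On the same assumption each held 1 fragment of HLA-DPB1. The values of HLA-DPB1 above 0 all lay at 1 level, so they cannot show what 1 fragment is worth. HLA-DQA1, the DQ alpha chain, was at 0.372, 0.274 and 0.394 FPKM in the THP-1 controls and was listed at 0 in all 6 MOLM-13 libraries. The DR beta genes HLA-DRB3 and HLA-DRB4 had no row and could not be seen. Whether the class II alleles of each line match the reference was not tested, so a 0 need not mean a silent gene. HLA-DRB5, HLA-DPA1, HLA-DPB1 and HLA-DQA1 passed the filter on low values through the THP-1 libraries alone and so had to differ, and their calls in this comparison add nothing to their values.

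The loading genes split. HLA-DMA was at 8.23, 7.52 and 7.66 FPKM in THP-1 and at 2.49, 2.58 and 2.56 FPKM in MOLM-13 controls, a difference of 1.58 ± 0.08 (adjusted p = 6.49e-07, limma). HLA-DMB, its obligate partner, was at 0.317, 0.512 and 0.305 FPKM in THP-1 and at 0.422, 0.626 and 0.514 FPKM in MOLM-13 controls, which overlap (difference -0.39 ± 0.21, adjusted p = 0.128). Without THP-1 control replicate 2, HLA-DMB passed the threshold as lower in THP-1 cells (-0.58, adjusted p = 0.0347). CD74 was among the high genes of both lines, at 70.9, 76.5 and 74.5 FPKM in THP-1 and 58.0, 70.2 and 68.0 FPKM in MOLM-13 controls. Its groups did not overlap, and the difference of 0.18 ± 0.08 did not pass the test (adjusted p = 0.0728).

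CIITA was low and at a like level in both lines. Its values were 0.275, 0.269 and 0.218 FPKM in THP-1 and 0.257, 0.242 and 0.254 FPKM in MOLM-13 controls, with a difference of 0.01 and a 95% interval of -0.35 to 0.36. The sign of so small a difference turned in 4 refits, without MOLM-13 control replicate 2, without THP-1 control replicate 1 or 2, and with median-of-ratios scaling.

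In this comparison 44% of the 12635 genes tested were called, 25% as higher in THP-1 cells. Of the 10 class II genes 7 were called, all higher, with 0 called lower, and of these 7 HLA-DRA, HLA-DRB1 and HLA-DMA were the ones measured above the filter in both lines. Ordered by level in the THP-1 controls, CD74 (74.0 ± 2.87 FPKM, mean ± SD, n = 3) and HLA-DRA (63.2 ± 6.67) led, followed by HLA-DRB1 (41.8 ± 1.69), HLA-DRB5 (14.0 ± 0.237), HLA-DMA (7.80 ± 0.379), HLA-DPA1 (5.84 ± 0.292), HLA-DPB1 (1.96 ± 0.239), HLA-DMB (0.378 ± 0.116), HLA-DQA1 (0.347 ± 0.0638) and CIITA (0.254 ± 0.0311). The highest HLA-DRA value came within 0.1 FPKM of the lowest CD74 value, the ranges of HLA-DMB and HLA-DQA1 overlapped, and the range of CIITA reached into that of HLA-DQA1, while the other neighbours in this order were apart. In MOLM-13 controls CD74 (65.4 ± 6.52) stood alone, with HLA-DRA (3.05 ± 0.799) and HLA-DMA (2.55 ± 0.0462) next and overlapping.

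**Figure D2:**
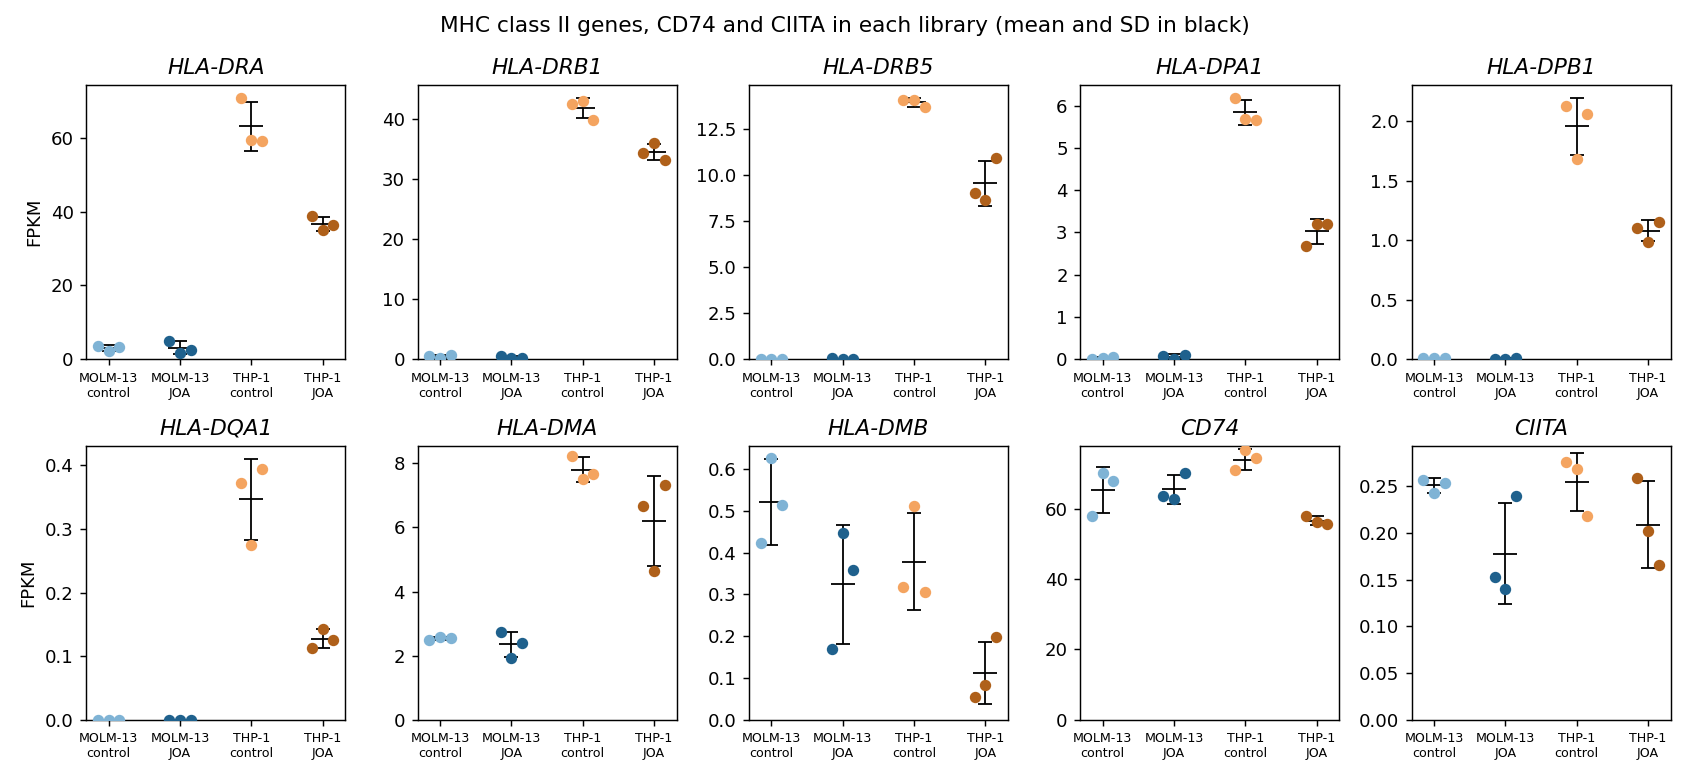
FPKM of each gene in the 12 libraries, with a linear axis from 0 for each gene, points for replicates 1 to 3 from left to right, and the group mean and SD in black. The 6 chain genes are near 0 in MOLM-13 cells next to THP-1 cells, and in THP-1 cells all 3 JOA points lie below all 3 control points for every gene other than CIITA.

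**Figure D3:**
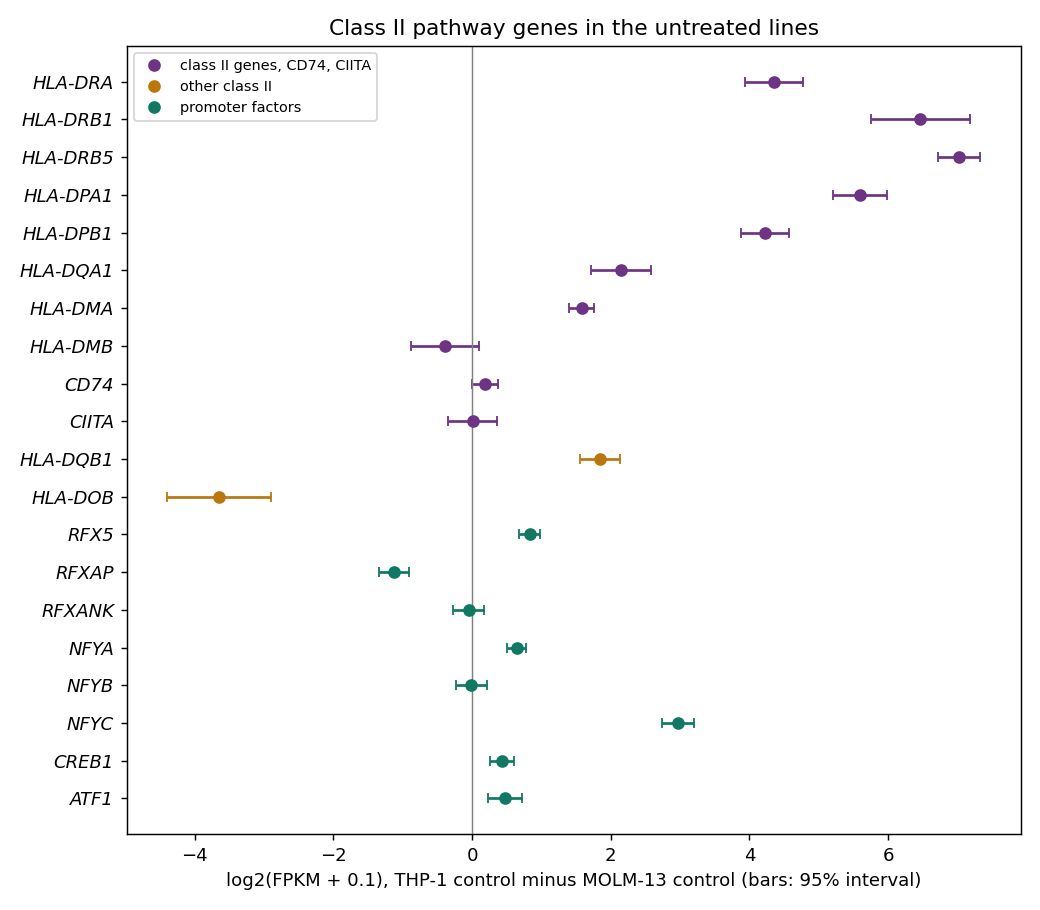
Difference in log2(FPKM + 0.1) between the THP-1 and the MOLM-13 controls (horizontal axis) for the 10 genes, for HLA-DQB1 and HLA-DOB, and for 8 promoter factors, with 95% intervals from limma. The chain genes and HLA-DMA sit to the right of 1.4 while the intervals of CD74, CIITA and HLA-DMB reach 0, and the place of HLA-DQA1, listed at 0 in MOLM-13 cells, depends on the 0.1 added.

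With 2 μM JOA in THP-1 cells, all 10 genes had lower means than in the controls, and 9 of them had no JOA value as high as any control value. Over all genes tested, 43.3% had lower means with JOA, and 8.81% were lower without overlap. HLA-DRA was at 38.7, 34.9 and 36.5 FPKM with JOA, against 70.9, 59.5 and 59.2 FPKM in the controls. It fell by 0.78 ± 0.08 on the log2 scale (adjusted p = 0.0394, limma). HLA-DPA1 was at 2.67, 3.19 and 3.20 FPKM with JOA against 6.18, 5.69 and 5.66 FPKM, and fell by 0.93 ± 0.09 (adjusted p = 0.0394). These 2 chain genes were the ones called, while 0.0787% of the 12712 genes tested in THP-1 cells were called lower.

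The labels do not say that same-numbered control and JOA libraries were paired. Their deviations from the group means correlated weakly in THP-1 cells (0.139 to 0.319), so the fit was also made with the number as a block. Calls that rest on the block depend on this pairing, which was inferred from the same libraries. With the block 5 of the 10 genes were called lower, beside 0.629% of all genes tested. HLA-DRA and HLA-DPA1 were called in both fits, with blocked adjusted p of 0.00213 and 0.00659. The 3 added by the block were HLA-DPB1, HLA-DQA1 and HLA-DMB. HLA-DPB1 was at 1.10, 0.983 and 1.16 FPKM with JOA against 2.13, 1.68 and 2.06 FPKM (-0.80 ± 0.12, adjusted p = 0.0543 and, with the block, 0.00838). HLA-DQA1 was at 0.114, 0.143 and 0.125 FPKM with JOA against 0.372, 0.274 and 0.394 FPKM (-0.97 ± 0.19, adjusted p = 0.0767 and, with the block, 0.0353). HLA-DMB was at 0.0555, 0.0843 and 0.197 FPKM with JOA against 0.317, 0.512 and 0.305 FPKM (-1.20 ± 0.29, adjusted p = 0.104 and, with the block, 0.0436). For HLA-DQA1 and HLA-DMB the groups stayed apart although both genes lie below 1 FPKM in every library.

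The DR beta chains had smaller log2 fold changes than their alpha chain. HLA-DRB1 was at 34.3, 35.9 and 33.2 FPKM with JOA against 42.5, 43.1 and 39.9 FPKM in the controls, a log2 fold change of -0.28 ± 0.05 (adjusted p = 0.0755, with the block 0.0123). HLA-DRB5 was at 9.03, 8.66 and 10.9 FPKM against 14.1, 14.1 and 13.7 FPKM, a log2 fold change of -0.55 ± 0.09 (adjusted p = 0.0543, with the block 0.0123). Both stayed under the fold threshold in either fit.

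CD74, the invariant chain, was at 58.0, 56.1 and 55.7 FPKM with JOA against 70.9, 76.5 and 74.5 FPKM in the controls, without overlap. Its log2 fold change of -0.38 ± 0.05 passed the test (adjusted p = 0.0394, with the block 0.00821) but not the fold threshold. HLA-DMA was at 6.68, 4.64 and 7.31 FPKM against 8.23, 7.52 and 7.66 FPKM, a log2 fold change of -0.35 ± 0.15 that did not pass (adjusted p = 0.304, with the block 0.0957). JOA replicate 2 was the low one of the HLA-DMA values, and without it the log2 fold change was -0.16 (adjusted p = 0.445). CIITA was at 0.259, 0.202 and 0.166 FPKM with JOA against 0.275, 0.269 and 0.218 FPKM, and its groups overlapped. CIITA was lower in all 3 same-numbered pairs. Its log2 fold change was -0.20 ± 0.19 (adjusted p = 0.638, with the block 0.536), with a 95% interval of -0.65 to 0.24 that holds both no change and a fall past the fold threshold.

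Over the 10 genes the median log2 fold change was -0.66 beside 0.02 over all genes tested. By its own test (DESeq, same thresholds) on the same libraries, the study reported HLA-DRA, HLA-DPA1, HLA-DPB1 and HLA-DQA1 as significantly lower with JOA in THP-1 cells. It also listed HLA-DRB5 among genes with altered expression. The direction of these genes here is therefore not independent evidence. The 2 calls without the block were lost when any 1 of the 6 THP-1 libraries (control or JOA replicate 1, 2 or 3) was left out, with adjusted p from 0.0523 to 0.175 for HLA-DRA and from 0.0597 to 0.175 for HLA-DPA1, while the log2 fold changes stayed between -0.82 and -0.69 and between -0.98 and -0.85. In 1 fit on all 12 libraries HLA-DPB1 (adjusted p = 0.0241) and HLA-DQA1 (0.0235) were called in place of HLA-DRA (0.220) and HLA-DPA1 (0.0725).

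In MOLM-13 cells with 0.5 μM JOA 0 of these genes were called by limma, as were 0 of the 11693 genes tested (0%), and 6 of the 10 passed the filter on low values. HLA-DRA was at 4.98, 1.72 and 2.48 FPKM with JOA against 3.64, 2.14 and 3.38 FPKM in the controls, a log2 fold change of -0.10 ± 0.35 with a 95% interval of -0.90 to 0.70. The JOA values of HLA-DRA lay on both sides of the controls. HLA-DRB1 was at 0.448, 0.102 and 0.169 FPKM against 0.486, 0.166 and 0.589 FPKM, a log2 fold change of -0.62 ± 0.45 with an interval of -1.65 to 0.42, and it was lower in all 3 same-numbered pairs. In both groups replicate 2 was the lowest library for HLA-DRA and for HLA-DRB1.

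CD74 was at 63.6, 62.8 and 70.2 FPKM with JOA against 58.0, 70.2 and 68.0 FPKM, a log2 fold change of 0.01 ± 0.09 with an interval of -0.19 to 0.20. HLA-DMA was at 2.72, 1.93 and 2.40 FPKM against 2.49, 2.58 and 2.56 FPKM (-0.12 ± 0.12). HLA-DMB was at 0.168, 0.447 and 0.358 FPKM against 0.422, 0.626 and 0.514 FPKM (-0.60 ± 0.28, interval -1.24 to 0.04), lower in all 3 same-numbered pairs but with overlapping groups. CIITA was at 0.153, 0.140 and 0.239 FPKM against 0.257, 0.242 and 0.254 FPKM (-0.36 ± 0.22, interval -0.85 to 0.14, with the block adjusted p = 0.577), also lower in all 3 pairs. It was the only 1 of the 6 whose groups did not overlap, by 0.239 against 0.242 FPKM, beside 4.55% of all genes tested that were lower without overlap.

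The adjusted p of all 6 was 1.00 in limma, and with the block it was at least 0.356. With the block 0 of all genes tested were called as well, and without it 481 genes (4.11%) had an unadjusted p under 0.05, with 0 of the 6 class II genes among them. The median log2 fold change of the 6 was -0.24 beside 0.01 over all genes tested. The other 4 genes were too low to test. HLA-DPA1 was at 0.0736, 0 and 0.0980 FPKM with JOA (3, 0 and 4 fragments if its lowest value above 0 is 1 fragment). HLA-DPB1 was listed at 0 in 2 JOA libraries and at 0.00995 FPKM in the other, HLA-DRB5 at 0.0298, 0 and 0 FPKM, and HLA-DQA1 at 0 throughout.

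**Figure D4:**
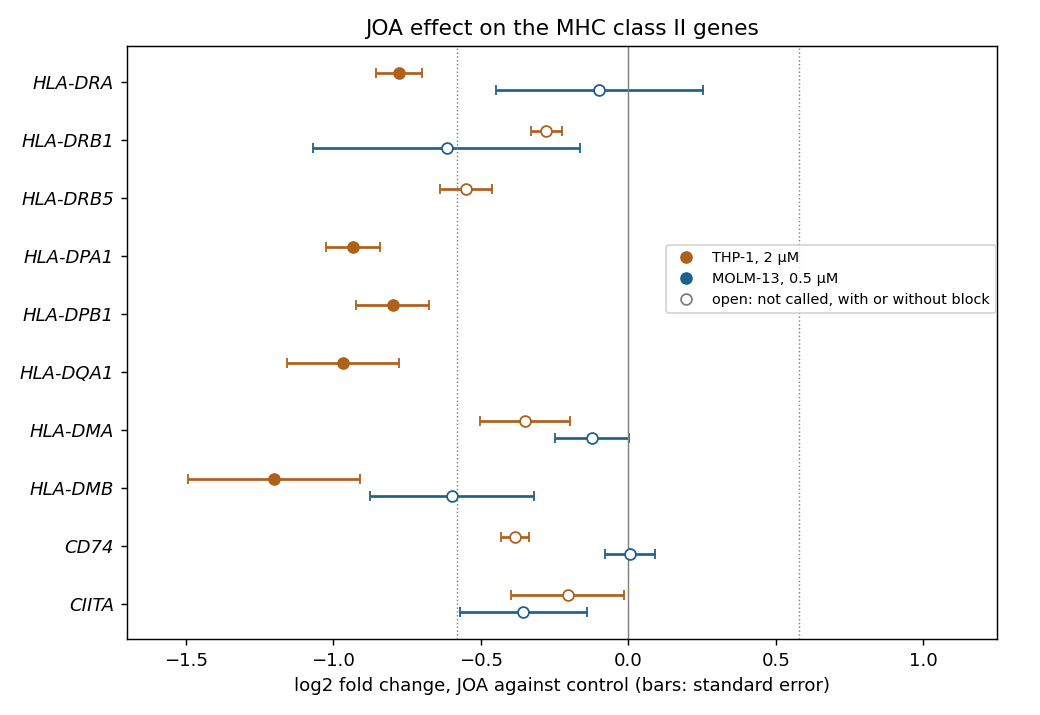
Log2 fold change of JOA against control on the log2(FPKM + 0.1) scale (horizontal axis) with standard errors from limma without the block, in THP-1 (orange) and MOLM-13 cells (blue). Filled points were called in the fit with the block and open points in neither fit, dotted lines mark 0.58 in size, and 4 genes have no MOLM-13 point because they failed the filter. In THP-1 cells 5 points are filled, from -1.20 for HLA-DMB to -0.78 for HLA-DRA, and in MOLM-13 cells 0 are.

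**Figure D5:**
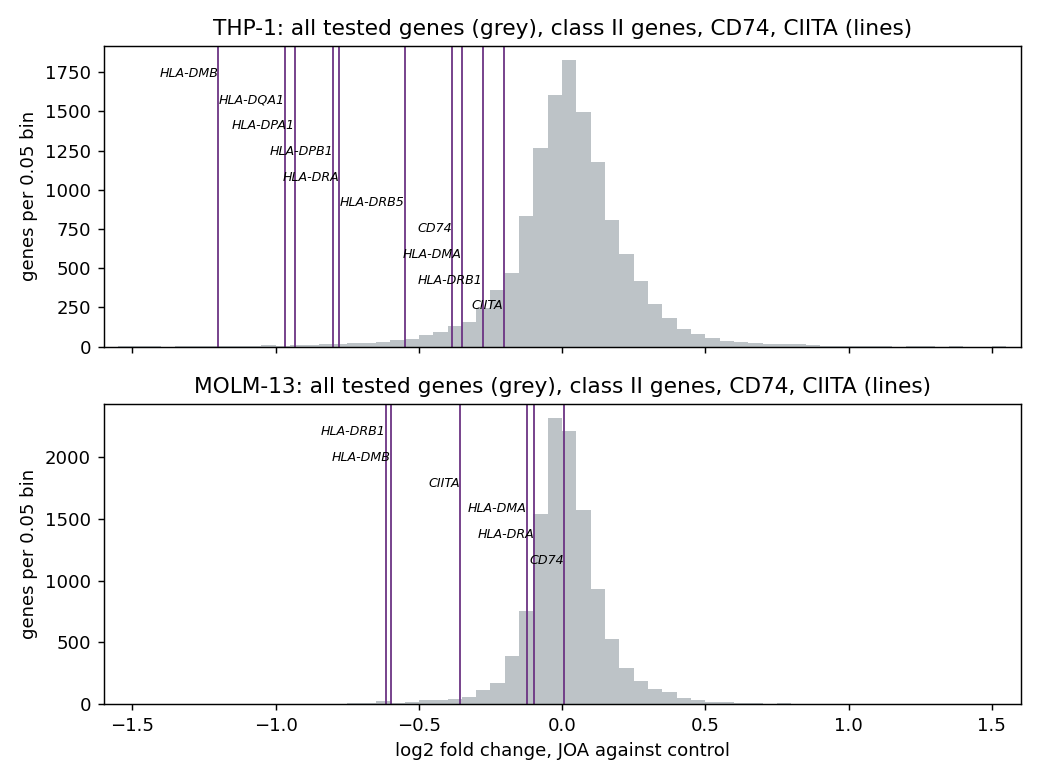
Log2 fold changes of JOA against control for all genes tested (grey, genes per bin of 0.05, values past the axis not drawn) in THP-1 and MOLM-13 cells, with a purple line for each class II gene, CD74 and CIITA. In THP-1 cells all 10 lines lie left of 0, with a median of -0.66, and in MOLM-13 cells the 6 lines run from -0.62 to 0.01.

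Whether the JOA effect differed between the lines was tested as an interaction over all 12 libraries. In that fit 0 of 12626 genes (0%) passed an adjusted p under 0.05 and 914 (7.24%) had an unadjusted p under 0.05. With the block 6 genes (0.0475%) passed. Of the class II genes 0 passed in either fit, and 5 had an unadjusted p under 0.05 without the block, which were HLA-DQA1, CD74, HLA-DPA1, HLA-DPB1 and HLA-DRB5. CD74 is the one of these 5 that was well expressed in both lines, and its effect was lower in THP-1 than in MOLM-13 cells by a log2 difference of -0.39 ± 0.10, with an adjusted p of 0.428 and, with the block, of 0.0986. For HLA-DRA the difference was -0.68 ± 0.41 (adjusted p = 0.777) and for CIITA 0.15 ± 0.24 (adjusted p = 0.950). Of the 5, all but CD74 were at or near 0 FPKM in MOLM-13 cells, where no fall could have been measured. Since the JOA effects, the line difference and the interaction use the same control libraries, their values stand side by side here and are not compared further.

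Ratios between partner genes in the same library were compared in THP-1 cells. The ratio of HLA-DRA to HLA-DRB1, which is free of any scaling of a library, was 1.67, 1.38 and 1.48 in the controls and 1.13, 0.972 and 1.10 with JOA. CD74 to HLA-DRA, invariant chain per DR alpha chain, was 1.00, 1.29 and 1.26 in the controls and 1.50, 1.61 and 1.53 with JOA. Neither ratio overlapped between the groups. The exact two-sided permutation test gave p = 0.1 for both, which is the smallest p that 3 libraries against 3 can give, so this test could not pass 0.05. CD74 to HLA-DRB1, in contrast, was 1.77 ± 0.0996 in the controls and 1.64 ± 0.0708 with JOA and overlapped (mean ± SD, n = 3, exact permutation p = 0.3).

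HLA-DPA1 to HLA-DPB1, the DP pair, had a ratio of 3.01 ± 0.332 in the controls and of 2.81 ± 0.407 with JOA (mean ± SD, n = 3, exact permutation p = 0.6). The DP ratio overlapped between the groups. HLA-DQB1, the DQ beta chain gene, was at 2.36, 2.81 and 2.93 FPKM in the THP-1 controls and at 2.28, 2.65 and 2.53 FPKM with JOA, with overlap (-0.11 ± 0.11, adjusted p = 0.654, limma). HLA-DQB1 to HLA-DQA1 was 6.35, 10.2 and 7.44 in the controls and 20.0, 18.5 and 20.3 with JOA (exact permutation p = 0.1, the smallest possible). For the HLA-DM pair, the ratio of HLA-DMA to HLA-DMB was 26.0, 14.7 and 25.1 in the controls and 120.4, 55.0 and 37.2 with JOA (exact permutation p = 0.1). HLA-DRA to CIITA was 257.5, 221.5 and 271.0 in the controls and 149.7, 172.9 and 220.2 with JOA (exact permutation p = 0.1). In the MOLM-13 controls HLA-DRA to CIITA was 14.2, 8.85 and 13.3. In all 20 ratios were tested over both lines, and none could pass after Benjamini-Hochberg adjustment, as none passed before it.

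The class II genes outside the 10 differed from them in part. HLA-DOB, which with HLA-DOA forms an inhibitor of HLA-DM, ran the other way between the lines, with 4.82, 5.15 and 3.97 FPKM in MOLM-13 and 0.123, 0.513 and 0.291 FPKM in THP-1 controls (-3.65 ± 0.32, adjusted p = 1.98e-05). HLA-DQB1 was higher in THP-1 than in MOLM-13 controls (2.70 ± 0.300 against 0.676 ± 0.0555 FPKM, adjusted p = 4.10e-06). With JOA, 0 of these 2 were called in either line. HLA-DOA was at most 0.0312 FPKM, and HLA-DQA2 and HLA-DQB2 were listed at 0 in all 12 libraries.

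The factors that bind class II promoters were expressed in both lines. RFX5, RFXAP and RFXANK form the X box complex, NFYA, NFYB and NFYC the Y box complex, and CREB1 and ATF1 bind beside the X box. With JOA 0 of these 8 were called in THP-1 cells (median log2 fold change -0.10) and 0 of 8 in MOLM-13 cells (median -0.05). In THP-1 cells NFYA was the one with an unadjusted p under 0.05 (-0.18 ± 0.06, adjusted p = 0.175, limma). There 6 of the 8 had negative log2 fold changes, beside 43.3% of all genes tested. Of the 8, NFYA, RFXANK and CREB1 were lower without overlap, beside 8.81% of all genes tested. Between the controls 4 of the 8 were called, 3 higher and 1 lower in THP-1 cells. This is near the share over all genes tested, of which 44% were called and 25% were called higher. NFYC showed the widest gap, with 46.2 ± 3.61 FPKM in THP-1 and 5.82 ± 0.713 FPKM in MOLM-13 controls. RFX5 was at 27.0 ± 0.865 against 15.2 ± 0.970 FPKM and NFYA at 23.1 ± 1.01 against 14.8 ± 0.495 FPKM. RFXAP was lower in THP-1 cells, at 3.22 ± 0.136 against 7.16 ± 0.668 FPKM.

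Of 14 genes that act on CIITA, 12 were tested in each comparison. IFNG, the gene of interferon gamma, was listed at 0 in all 12 libraries. With JOA 0 of 12 were called in either line. In THP-1 cells IRF1, an interferon-induced factor that acts on CIITA, had a log2 fold change of -0.23 ± 0.19 (adjusted p = 0.595, limma), and the receptor gene IFNGR1 one of 0.16 ± 0.10 (adjusted p = 0.475), so that neither passed. Between the controls, 2 of the 12 were called, beside 44% of all genes tested. SOCS1, an inhibitor of interferon signalling, was at 14.4 ± 1.31 FPKM in MOLM-13 and 0.717 ± 0.115 FPKM in THP-1 cells, and USF1 was at 17.8 ± 2.14 and 31.4 ± 1.99 FPKM.

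Endosomal proteases and their helpers cut the invariant chain and the peptides. With JOA 7 of the 8 tested in THP-1 cells had higher means (median log2 fold change 0.22), beside 56.7% of all genes tested. Of the 8, 0 passed both thresholds with or without the block. CTSL, the gene of the protease cathepsin L, came closest, with 18.9 ± 1.55 FPKM in the controls and 27.7 ± 1.68 FPKM with JOA (0.55 ± 0.07, adjusted p = 0.0394), under the fold threshold. Of the CD74 partner genes, MIF, the ligand of the CD74 receptor, had a log2 fold change of -0.22 ± 0.06 (adjusted p = 0.127, with the block 0.0365). The costimulatory gene CD86 was at 3.42 ± 0.823 FPKM in MOLM-13 and 0.202 ± 0.0776 FPKM in THP-1 controls, opposite to the class II chains, and CD40 was higher in THP-1 cells (1.09 ± 0.160 against 0.103 ± 0.0449 FPKM).

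Among 12 MHC class I genes, which serve CD8+ T cells and have NLRC5 as their own transactivator, 0 were called with JOA in THP-1 cells, with or without the block. Their median log2 fold change was -0.24, and HLA-F had the most negative value (-0.69 ± 0.24, adjusted p = 0.199, with the block 0.0502). HLA-B was at 222 ± 29.1 FPKM in the controls and 168 ± 29.4 FPKM with JOA (-0.41 ± 0.14, adjusted p = 0.212, with the block 0.00714), under the fold threshold. NLRC5 had a log2 fold change of 0.15 ± 0.09 (adjusted p = 0.470).

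Other cells that carry class II were looked for by their markers. The 7 dendritic cell markers summed to at most 0.645 FPKM in any library and to at most 0.128 FPKM in THP-1 cells, with CLEC10A and CD1C at or near 0 FPKM there. The 5 B cell markers summed to 9.56 to 11.2 FPKM in the THP-1 controls and 8.96 to 10.4 FPKM with JOA, and to 0.269 to 0.519 FPKM in the MOLM-13 controls. Most of this was CD79B (8.75 ± 0.841 FPKM in THP-1 controls and 8.83 ± 0.866 with JOA), while MS4A1 was at or near 0 FPKM. PAX5 was at 0.594 ± 0.0354 FPKM in the THP-1 controls and 0.363 ± 0.0303 FPKM with JOA (-0.58 ± 0.14, adjusted p = 0.101, with the block 0.0585). CD79A was at 0.760 ± 0.192 FPKM in the THP-1 controls and 0.476 ± 0.0842 FPKM with JOA (-0.56 ± 0.20, adjusted p = 0.224, with the block 0.126). PAX5 and CD79A were the 2 of 4 tested B cell markers that were lower without overlap, beside 8.81% of all genes tested. Of the myeloid markers in THP-1 cells 0 were called without the block. With it ITGAM was called higher (0.71 ± 0.15 in that limma fit, adjusted p = 0.0348) and MPO lower (-0.64 ± 0.06, adjusted p = 0.00659). Over all genes tested 1.27% were called with the block. The MPO groups overlapped, and without the block its value was -0.64 ± 0.35 (adjusted p = 0.399). The T cell markers summed to 1.56 to 3.79 FPKM in the MOLM-13 controls, nearly all of it CD3D, and to at most 0.0257 FPKM in the THP-1 controls. The part of these changes in the class II values was not tested, and in bulk RNA fewer cells carrying class II and less class II RNA per cell cannot be told apart.

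The genes whose pattern was most like the mean of the 6 chain genes were found by the root mean square distance between deviations from each gene's own mean, on the log2(FPKM + 0.1) scale. Over the 12 libraries and 10061 genes these were C3orf14 (distance 0.221), ALDH2 (0.239), ADAMTS2 (0.246), ZNF711 (0.258) and ZNF614 (0.265), where the SD of the chain profile itself was 2.34. ALDH2 had group means of 1.39 and 1.26 FPKM in MOLM-13 and of 37.2 and 26.0 FPKM in THP-1 cells without and with JOA. The others fell less with JOA in THP-1 cells. C3orf14 went from 2.52 to 2.13, ADAMTS2 from 3.12 to 2.60, ZNF711 from 2.85 to 2.54 and ZNF614 from 4.43 to 3.98 FPKM. All of these genes were far lower in MOLM-13 cells, so this likeness mostly follows the difference between the lines. Over the 6 THP-1 libraries and 10091 genes the near genes included SYNPO (distance 0.0838), FAM117B (0.0937), LPAR3 (0.0942) and DEFB1 (0.104), with an SD of 0.363 for the chain profile. Of the chain genes themselves HLA-DPA1 (0.303) was nearest to their mean over the 12 libraries and HLA-DRA (0.0833) over the 6 THP-1 libraries. HLA-DRB1 (1.06), HLA-DRB5 (1.06) and HLA-DQA1 (1.51) were farthest from it over the 12 libraries.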

How the data were processed

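mRNA-seq libraries of control and JOA-treated MOLM-13 and THP-1 cells (TruSeq Stranded kit, 12 libraries) were analysed. The authors deposited 1 table of FPKM values per gene and library. Their processing notes name Trimmomatic, HISAT2, Cufflinks and HTSeq, without versions, and the build hg38. Total counts per library cannot be read from FPKM, so depth and counting error are unknown. No further scaling was applied. The values hold 3488 rows at 0 in all libraries and 27 names turned into dates.

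Genes whose FPKM averaged 0.1 or more in the fitted libraries were kept, and log2(FPKM + 0.1) was fitted with limma 3.58.1 in R 4.3.3 (lmFit, eBayes with trend) with Benjamini-Hochberg adjustment over all genes. JOA was compared with control in each line, THP-1 with MOLM-13 controls, and both effects as an interaction, called on the adjusted p alone. The study's own test needs read counts and was not run. All class II genes are named, and of the pathway lists the genes that were called, the promoter factors and the main control genes; HLA-F, HLA-B, CD74 partners, NLRC5 and marker genes not called were named after their values were seen. The genes and lists were chosen with earlier results of these data known. In THP-1 cells deviations from group means correlated at 0.139 to 0.319 between same-numbered control and JOA libraries, and at 0.264 to 0.398 in MOLM-13 cells (other numbers at most 0.0168). The numbers from the labels were therefore taken to pair them. Deviations in a group sum to 0, so positive same-number correlations push those of other numbers down. The low values of other numbers are thus no separate support for the pairing. The fits were tested on simulated data. Of the listed genes 7 had no row. Fragment steps in MOLM-13 cells were read from values below 0.1 FPKM, with the lowest value above 0 of a gene taken as 1 fragment. Alternatives were other pseudocounts, filters, scalings, thresholds, eBayes without trend, the block, 1 joint fit, and leaving out each library. Single values of a few listed or near genes are not reported here.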

Additional observations from a re-analysis of the deposited data

How the results depend on the processing

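Of the 10 class II genes, 2 were called lower with JOA in THP-1 cells. With the replicate block, which takes same-numbered libraries as pairs, 5 were called lower, beside 0.629% of all genes tested. An unadjusted limma p under 0.05 with the same fold also gave 5, beside 1.04% of all genes tested that were lower by this rule. With all genes above 0 tested, or with eBayes without trend, 0 were called, and without any 1 library the count was 0 to 0. Other pseudocounts, scalings, a joint fit, the adjusted p alone and a filter at 1 FPKM gave 2 or 3. In MOLM-13 cells 0 were called under every alternative run. Between the controls 7 were called, 5 to 8 under the alternatives, and 7 with the replicate block, although same-numbered controls of the 2 lines correlated at only 0.0698 to 0.131. Of these 7, HLA-DRB5, HLA-DPA1, HLA-DPB1 and HLA-DQA1 had to differ, as they passed the filter through the THP-1 libraries alone. For the interaction 0 were called, with or without the block, but 1 (HLA-DPA1, adjusted p = 0.0198, limma) with a pseudocount of 1 and 5 with an unadjusted p. Apart from CD74, these genes were at or near 0 FPKM in MOLM-13 cells, where no fall could have been measured, so these outcomes add nothing to their values. The block changed no other call of these genes.

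Signs turned for the following values. In MOLM-13 cells CD74 went from 0.01 to -0.0059 with columns scaled to one sum, and without any 1 library it ranged from -0.078 (control replicate 1) to 0.060. HLA-DRA ranged from -0.51 to 0.23 (without JOA replicate 2), and HLA-DMA from -0.23 to 0.0053 (without JOA replicate 2). CIITA between the controls went from 0.01 to -0.022 with median-of-ratios scaling and ranged from -0.035 (without THP-1 control replicate 1) to 0.084 without any 1 library. The HLA-DRB1 interaction went from 0.34 to -0.084 with a pseudocount of 1. The cause was not tested.

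With 3 libraries a group and no counts, differences of the low genes CIITA, HLA-DQA1 and HLA-DMB cannot be given a counting error.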
